A study of Mus musculus with 8 samples.

Results

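The transcripts examined here encode 10 factors that write, read or erase N6-methyladenosine (m6A), the most abundant internal mark of messenger RNA. They are *Rbm15*, *Rbm15b*, *Mettl3*, *Mettl14*, *Wtap*, *Ythdf1*, *Ythdf2*, *Ythdc1*, *Fto* and *Alkbh5*, taken by their GENCODE M21 symbols out of 54838 Ensembl genes in the count files. They were measured by RNA-seq in *iMLL-AF9* mouse leukemic cells. These cells carry a doxycycline-inducible allele of the *MLL-AF9* fusion oncogene, in both groups. Cells were treated with IOX5, an inhibitor of the HIF prolyl hydroxylases (PHDs), or with DMSO, the vehicle, and 4 libraries were made per group, numbered 1 to 4 in each. The labels describe bone marrow leukemic stem cells of WT genotype, and they give no dose, duration, age or sex. They do not say whether the libraries come from separate cultures or animals, so p-values measure the spread between these libraries, which may be technical.

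m6A is deposited on nascent transcripts by a nuclear complex. METTL3 is its catalytic subunit, METTL14 binds RNA beside it, WTAP holds the complex in nuclear speckles, and RBM15 or its paralog RBM15B guides it to RNA. The YTHDF proteins read the mark in the cytoplasm and YTHDC1 reads it in the nucleus. FTO and ALKBH5 remove it, and both are 2-oxoglutarate and iron dependent oxygenases, as the PHDs are. In myeloid leukemia, writers and readers of m6A are known to sustain self-renewal, and human *RBM15* was first known as a fusion partner in acute megakaryoblastic leukemia. The level of m6A itself and the levels of these proteins were not measured.

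Libraries held between 12343770 and 14116054 reads on genes in the DMSO group and between 11351507 and 12708888 in the IOX5 group. All 10 factors were well covered, the lowest count of any of them in any library being 318 reads, and all 10 were among the 12405 genes that passed the filter on low counts. The 8 markers of myeloid leukemic progenitors on the list used here, *Kit*, *Hoxa9*, *Meis1* and *Mpo* among them, all passed the same filter. *Ms4a1*, a marker of B cells, was at 0 reads in all 8 libraries. Of 8 HIF target genes used to check the treatment, edgeR called 3 higher, against 0.774% of all genes. With replicate number as a block it called 7 higher, against 11.2%. *Ankrd37* rose from 6.05 ± 0.806 to 15.8 ± 1.98 CPM (SD over 4 libraries per group; edgeR adjusted p = 0.0143). *Pdk1* (edgeR adjusted p = 0.0157) and *Bnip3* (edgeR adjusted p = 0.0469) also rose, with log2 fold changes of 0.67 and 0.98. *Egln3* had a log2 fold change of 0.88 and passed once replicate number was a block (edgeR adjusted p = 0.136, and 3.10e-05 when blocked). DMSO replicates 3 and 4 were more alike than any other pair of libraries. Their counts differed by a chi-square of 2.17 per degree of freedom, above sampling noise, against 9.28 to 49.9 for the other pairs.

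The summed level of 5 macrophage markers ran from 69.9 to 129.3 CPM in the DMSO libraries and from 121.2 to 335.0 CPM in the IOX5 libraries, and that of the 6 mast cell and basophil markers from 159.3 to 587.3 and from 257.5 to 944.5 CPM. The sums over the megakaryocyte list (16.5 to 65.3 against 39.2 to 118.7 CPM), the erythroid list (3.11 to 15.5 against 4.97 to 25.6 CPM), the lymphoid list (4.94 to 18.4 against 7.05 to 26.5 CPM), the stromal and endothelial list (up to 164.0 against up to 218.8 CPM) and the myeloid progenitor list (2245 to 4431 against 2671 to 5054 CPM) overlapped between the groups in the same way. Within replicate numbers, however, each of the 7 sums was higher with IOX5 in all 4 pairs, as were 21.3% of all genes tested. Sums follow their most abundant genes. In the progenitor list, *Mpo* alone ran from 984.1 to 3380 CPM in DMSO and from 1141 to 3915 CPM in IOX5. Of its 8 genes, 6 had log2 fold changes above 0 and 2 below, and *Hoxa9* was lower in all 4 pairs. Of 5 lymphoid markers, 1 was tested. The 2 tested stromal and endothelial markers were 1 higher and 1 lower. Of the macrophage markers, *Adgre1* and *Mrc1* were called higher by DESeq2, by limma's voom and by edgeR with the replicate number as a block, but not by edgeR without it. *Adgre1* ranged from 32.3 to 54.4 CPM in DMSO and from 65.7 to 170.5 CPM in IOX5, with no overlap (edgeR adjusted p = 0.0663 unblocked and 0.000185 blocked). In these bulk samples, fewer cells of a type and less RNA per cell cannot be told apart. The part of cell composition in the results that follow was not tested.

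One of the 10 factors, *Rbm15*, passed the edgeR threshold of 0.05 on the adjusted p, as lower with IOX5, and 0 passed as higher. Over all genes, 2.02% were called, 1.25% as lower and 0.774% as higher. Of the 10 factors, 4 had an unadjusted p under 0.05, all lower, against 20.2% of all genes (11.2% lower and 8.98% higher). DESeq2 and edgeR with the replicate number as a block both called *Rbm15* and *Wtap* lower and none higher, where the background of calls was also wider. DESeq2 called 10.4% of genes (5.75% lower and 4.67% higher), and the block 20.7% (9.43% lower and 11.2% higher). Of the 10 log2 fold changes, 7 were below 0, as were 5855 of the 12405 genes tested. The median of the 10 was -0.087, against 0.017 over all genes tested.

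*Rbm15* (ENSMUSG00000048109; GRCm38 chromosome 3, 107325421 to 107333673, minus strand) encodes an RNA-binding protein of the SPEN family with a SPOC domain. Its normalized level was 79.7, 91.3, 94.8 and 91.6 CPM in DMSO replicates 1 to 4, and 62.2, 58.4, 69.1 and 57.5 CPM in IOX5 replicates 1 to 4, where CPM is the read count scaled to the library's total with TMM factors. Every IOX5 library lay below every DMSO library, and DMSO replicate 1 was the lowest of its group. Among all genes tested, 8.3% had groups that did not overlap in this direction and 5.98% in the other. The mean fell from 89.3 ± 6.63 to 61.8 ± 5.27 CPM (SD, n = 4 each), and thus decreased by 30.8%. The log2 fold change was -0.53 (standard error 0.081, 95% confidence interval -0.71 to -0.35, edgeR adjusted p = 0.0254). It stood at rank 54 by p-value, with 228 genes, or 1.84% of those tested, showing a lower log2 fold change. Within replicate numbers 1 to 4, the log2 differences were -0.36, -0.64, -0.46 and -0.67. *Rbm15* is one of the genes that the study singled out from these same samples, so its direction is not independent evidence.

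The direction and size of the *Rbm15* change were stable over the settings tried, with log2 fold changes from -0.60 to -0.48, but without the block the call was lost in 6 of the 8 fits that left out 1 library. The edgeR adjusted p was 0.0542 without DMSO replicate 1, 0.0730 without DMSO replicate 2, 0.0959 without DMSO replicate 3, 0.113 without DMSO replicate 4, 0.0559 without IOX5 replicate 1 and 0.0619 without IOX5 replicate 3. It was 0.0933 with DMSO replicates 3 and 4 summed as 1 library. Over all genes, these 6 fits called 11, 17, 0, 0, 71 and 0 genes, in the same order. The fit with the summed library called 0, against 251 with all 8 libraries. With the replicate number as a block, *Rbm15* passed in each of the 4 fits that left out 1 number, at an edgeR adjusted p of at most 0.00417.

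The other SPEN-family adaptor, *Rbm15b* (ENSMUSG00000074102; chromosome 9, 106880918 to 106887428, minus strand), can stand in for RBM15 in the writer complex. Its level was 80.6, 82.3, 79.8 and 77.6 CPM in DMSO replicates 1 to 4 and 77.0, 77.6, 86.1 and 81.7 CPM in IOX5 replicates 1 to 4. The groups overlapped throughout. Its log2 fold change was 0.0096, with a 95% confidence interval of -0.12 to 0.14 that does not reach the value of *Rbm15* (standard error 0.057, edgeR adjusted p = 0.943).

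The test of the difference between the paralogs was made within libraries, on the ratio of *Rbm15* to *Rbm15b* reads. The ratio was 0.989, 1.11, 1.188 and 1.181 in DMSO replicates 1 to 4 and 0.808, 0.753, 0.803 and 0.704 in IOX5 replicates 1 to 4. The groups did not overlap, and the difference in mean log2 ratio was -0.54 (two-sided exact permutation p = 0.0286, the lowest value that 4 libraries against 4 allow; 0.0429 after Benjamini-Hochberg adjustment over 3 ratios). With the libraries paired by replicate number it did not pass (exact sign-flip p = 0.125, the lowest that 4 pairs allow). The difference is close to the log2 fold change of *Rbm15* itself (-0.53), with that of *Rbm15b* at 0.0096. It is therefore not evidence separate from the fall of *Rbm15*, which the study had singled out from these samples. No 50-base word of the *Rbm15* transcripts, a length set by the shortest read kept in trimming, occurs in a transcript of another GENCODE M21 gene. Of the words of *Rbm15b*, 0.399% do, all in *Dcaf1*, so the paralogs share none.

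**Figure D1:**
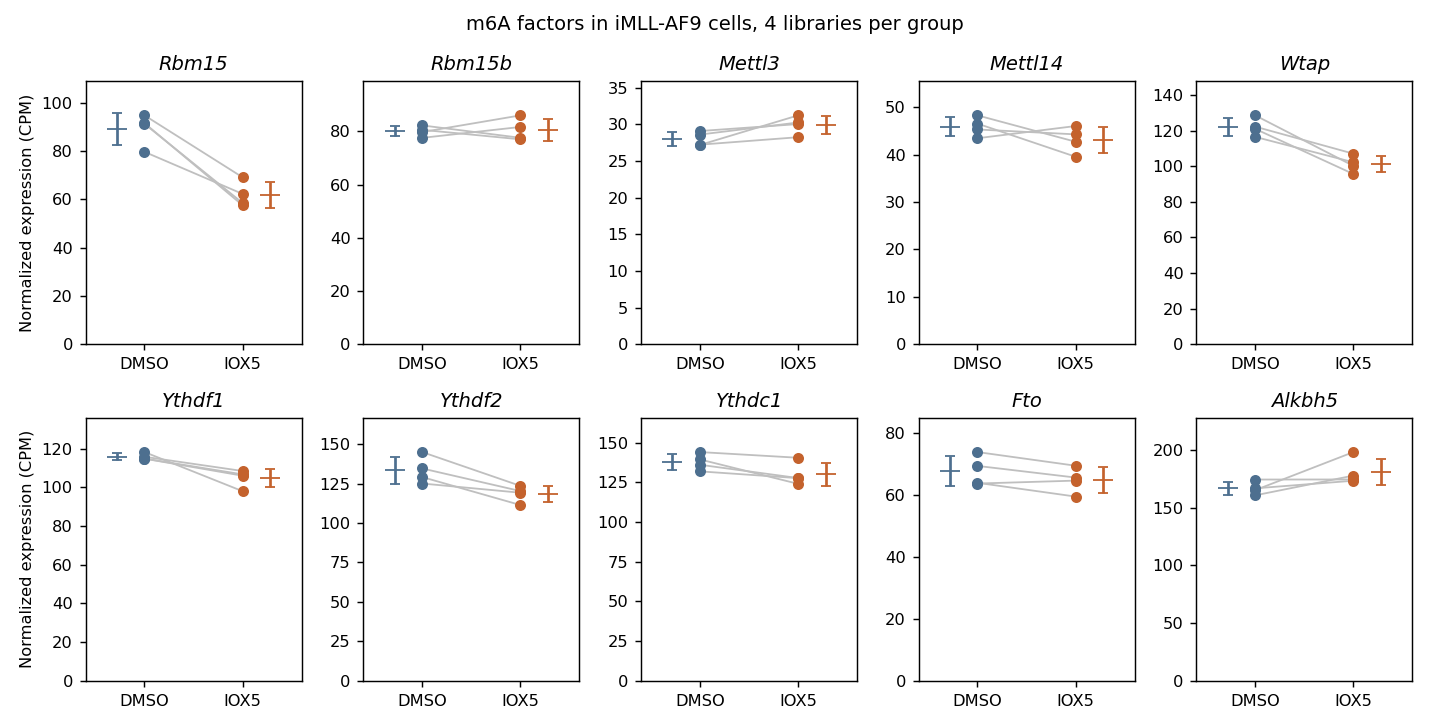
Normalized expression (CPM) of the 10 m6A factors in the 4 DMSO and 4 IOX5 libraries, with gray lines joining libraries of the same replicate number and bars showing the mean ± SD beside the points; each axis starts at 0. *Rbm15* dropped from 79.7 to 94.8 CPM in DMSO to 57.5 to 69.1 CPM in IOX5, whereas the *Rbm15b* libraries overlapped between 77.0 and 86.1 CPM.

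Letters of the core recognized by HIF, ACGTG and GCGTG, were searched on both strands of the RefSeq promoter windows (GRCm38.p6, 250 bases before to 50 bases after a gene's start), which were at hand for 9 of the 10 factors. They are shown for the paralogs because 1 of them fell and the other was not called. The window of *Rbm15* held 1 match to ACGTG, which starts 116 bases before the RefSeq start. By GENCODE M21 this window lies wholly within annotated exon sequence of *Rbm15*. The window of *Rbm15b* likewise lies wholly within annotated exon sequence of its gene. The *Rbm15b* window held 2 copies of the palindrome CACGTG, each of which reads ACGTG on both strands, and 1 match to GCGTG. In the sequences that follow, written 5′ to 3′ on the strand of the gene, the capitals mark ACGTG.
Rbm15, chr3:107333389-107333417 (minus strand): gtgatttaaaagACGTGgccacaaaccaa
Rbm15b, chr9:106887212-106887240 (minus strand): tgccaagatgtcACGTGgtgcggggccac
Rbm15b, chr9:106887144-106887172 (minus strand): cccaccgcggtcACGTGtcgcggccggcg
ACGTG occurred in 19.6% of all 32851 windows of this length, GCGTG in 32.4%, either in 43.8%, and CACGTG in 7.15%. Of the 9 factors with a window, 8 held at least 1 of the first pair of words, and the window of *Fto* held neither. This counts genes, and *Wtap* has 3 windows, whereas the shares above are of windows. The windows of the factors held 52% to 80.3% G and C, and the shares were not matched for this. The count thus cannot be set against the shares. A match is a description of the letters and does not show that a factor binds there.

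*Wtap* (ENSMUSG00000060475; chromosome 17, 12966796 to 12994169) encodes the regulatory subunit that anchors the METTL3-METTL14 dimer. It stood at 116.5, 128.6, 121.0 and 122.2 CPM in DMSO replicates 1 to 4 and at 102.2, 100.2, 95.6 and 107.0 CPM in IOX5 replicates 1 to 4. The groups did not overlap, and all 4 pairs of the same number were lower with IOX5. The log2 fold change was -0.27 (standard error 0.059, 95% confidence interval -0.40 to -0.14), and edgeR gave an adjusted p of 0.0536, or of 0.0106 when replicate number was a block. The adjusted p from DESeq2 was 0.00164. With the block, *Wtap* lost its call without replicate number 3 (edgeR adjusted p = 0.0923). Of the 50-base words of *Wtap*, 6.36% occur in other genes, and the effect of this on its counts was not tested.

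Neither gene of the catalytic pair was called. *Mettl3* (ENSMUSG00000022160; chromosome 14, 52294841 to 52305128) stood at 29.1, 27.2, 28.6 and 27.2 CPM in DMSO replicates 1 to 4 and at 30.0, 28.2, 30.2 and 31.2 CPM in IOX5 replicates 1 to 4, and its log2 fold change was 0.095 (95% confidence interval -0.064 to 0.25, edgeR adjusted p = 0.489). *Mettl14* (ENSMUSG00000028114; chromosome 3, 123368297 to 123386108) stood at 45.3, 48.3, 46.6 and 43.5 CPM in DMSO replicates 1 to 4 and at 44.3, 42.7, 39.6 and 46.1 CPM in IOX5 replicates 1 to 4, and its log2 fold change was -0.090 (95% confidence interval -0.25 to 0.067, edgeR adjusted p = 0.510). Neither passed the threshold under any setting tried.

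The balance within the pair was tested on the ratio of their reads. The ratio of *Mettl3* to *Mettl14* reads was 0.642, 0.564, 0.615 and 0.626 in DMSO replicates 1 to 4 and 0.678, 0.661, 0.765 and 0.678 in IOX5 replicates 1 to 4. Every IOX5 library lay above every DMSO library, with a difference in mean log2 ratio of 0.19 (two-sided exact permutation p = 0.0286, the lowest possible; 0.0429 adjusted over 3 ratios). Paired by replicate number, it also had an exact sign-flip p of 0.125 and did not pass. IOX5 replicate 3 was the highest. Without it the difference was 0.14 (exact permutation p = 0.0571), and without DMSO replicate 2 it was 0.15 (exact permutation p = 0.0571). Exons of *Mettl3* share 933 bases, 18.4% of their length, with those of the antisense gene *Tox4*, which had 12799 reads over the 8 libraries against 2906 for *Mettl3*. The strand setting of the counting is not stated in the sources used here. The antisense pair *Xist* and *Tsix* had 105071 and 21 reads. An unstranded count can set reads of shared exons aside as ambiguous, so these counts cannot tell whether strand was used. The effect of *Tox4* on the *Mettl3* counts was not tested.

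**Figure D2:**
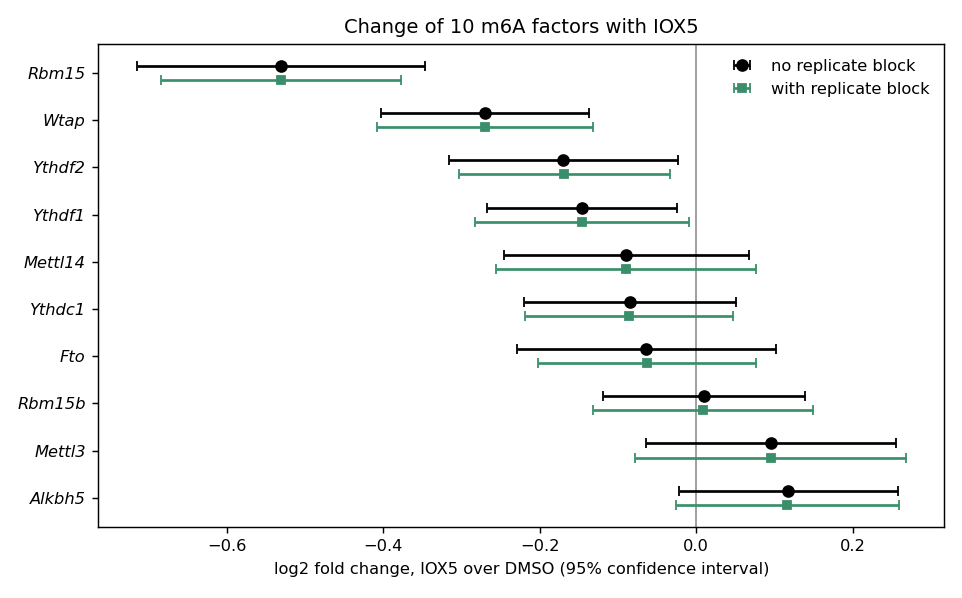
Log2 fold change of each factor, IOX5 over DMSO, with 95% confidence intervals from edgeR without (black circles) and with (green squares) the replicate number as a block. The intervals of *Rbm15* (-0.71 to -0.35) and *Wtap* (-0.40 to -0.14) without the block lie farthest below 0, and those of *Mettl3*, *Mettl14*, *Ythdc1*, *Fto*, *Rbm15b* and *Alkbh5* include 0.

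Of the readers, *Ythdf1* (ENSMUSG00000038848; chromosome 2, 180904377 to 180920949), which is best known for promoting translation, stood at 114.8, 118.2, 115.8 and 114.8 CPM in DMSO replicates 1 to 4 and at 106.7, 98.0, 108.4 and 106.0 CPM in IOX5 replicates 1 to 4. *Ythdf2* (ENSMUSG00000040025; chromosome 4, 132184912 to 132212303), which recruits the CCR4-NOT deadenylase to marked RNA, stood at 125.0, 129.1, 134.5 and 144.9 CPM in DMSO replicates 1 to 4 and at 119.2, 111.4, 120.2 and 123.5 CPM in IOX5 replicates 1 to 4. In both genes the highest IOX5 library lay below the lowest DMSO library. Their log2 fold changes were -0.15 for *Ythdf1* (95% confidence interval -0.27 to -0.025, edgeR adjusted p = 0.175) and -0.17 for *Ythdf2* (95% confidence interval -0.32 to -0.024, edgeR adjusted p = 0.188), and neither passed with the block or by DESeq2. Of the 50-base words of *Ythdf2*, 7.49% occur in other genes.

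*Ythdc1* (ENSMUSG00000035851; chromosome 5, 86804221 to 86836659), the nuclear reader that acts in splicing and export, stood at 131.9, 139.4, 136.1 and 144.1 CPM in DMSO replicates 1 to 4 and at 127.7, 124.1, 127.7 and 140.5 CPM in IOX5 replicates 1 to 4. IOX5 replicate 4 lay within the DMSO range. The log2 fold change was -0.085 (95% confidence interval -0.22 to 0.050, edgeR adjusted p = 0.467).

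Of the erasers, *Fto* (ENSMUSG00000055932; chromosome 8, 91313525 to 91668439) stood at 73.8, 69.3, 63.6 and 63.9 CPM in DMSO replicates 1 to 4 and at 69.4, 65.5, 64.6 and 59.4 CPM in IOX5 replicates 1 to 4. *Alkbh5* (ENSMUSG00000042650; chromosome 11, 60536381 to 60558512) stood at 174.3, 166.7, 165.1 and 160.6 CPM in DMSO replicates 1 to 4 and at 174.3, 173.3, 198.1 and 177.7 CPM in IOX5 replicates 1 to 4. The groups overlapped for both. The log2 fold change was -0.064 for *Fto* (95% confidence interval -0.23 to 0.10, edgeR adjusted p = 0.670) and 0.12 for *Alkbh5* (95% confidence interval -0.022 to 0.26, edgeR adjusted p = 0.325). The ratio of *Fto* to *Alkbh5* reads ran from 0.385 to 0.423 in DMSO and from 0.326 to 0.398 in IOX5, a difference in mean log2 ratio of -0.18 that did not pass (two-sided exact permutation p = 0.0857, also 0.0857 adjusted over 3 ratios). Leaving out IOX5 replicate 1, the only IOX5 library within the DMSO range, separated the groups and so gave the lowest possible p (difference -0.23, exact permutation p = 0.0286). With any other library left out, the exact permutation p ran from 0.0857 to 0.2.

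**Figure D3:**
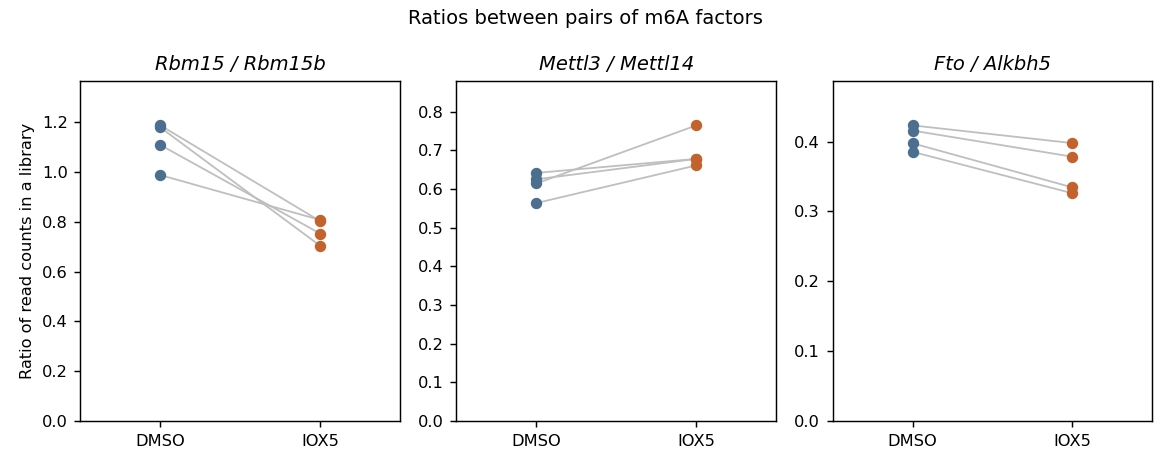
Ratio of read counts within each library for 3 pairs of m6A factors, with gray lines joining libraries of the same replicate number and axes that start at 0. The *Rbm15* to *Rbm15b* ratio was 0.989 to 1.19 in DMSO and 0.704 to 0.808 in IOX5, the *Mettl3* to *Mettl14* ratio was higher in every IOX5 library, and the *Fto* to *Alkbh5* ratio overlapped between the groups.

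Within replicate numbers, *Rbm15*, *Wtap*, *Ythdf1*, *Ythdf2* and *Ythdc1* were lower with IOX5 in all 4 pairs, and *Mettl3* and *Alkbh5* were higher in all 4, although the *Alkbh5* values of pair 1 were nearly equal. Over all genes tested, 19.8% were lower and 21.3% higher in all 4 pairs. The groups did not overlap for 4 of the 10 factors, all lower, against 14.3% of all genes in either direction.

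Levels were compared between genes per kilobase of annotated exon (RPKM, computed from CPM and the union of GENCODE M21 exons). In DMSO the order was *Ythdf1* at 35.0 ± 0.482 RPKM (SD, n = 4), *Ythdf2* at 29.2 ± 1.89, *Alkbh5* at 27.8 ± 0.951, *Wtap* at 19.5 ± 0.799, *Rbm15b* at 12.3 ± 0.299, *Rbm15* at 12.04 ± 0.893, *Ythdc1* at 10.1 ± 0.377, *Mettl14* at 6.19 ± 0.274, *Mettl3* at 5.52 ± 0.191 and *Fto* at 5.19 ± 0.373 RPKM. The YTHDF readers and *Alkbh5* thus stood highest, and the catalytic pair and *Fto* lowest. The library ranges of *Ythdf2* and *Alkbh5*, of *Rbm15b* and *Rbm15*, and of *Mettl3* and *Fto* overlapped, so that these neighbors cannot be ordered. In IOX5, *Rbm15* at 8.33 ± 0.710 RPKM (SD, n = 4) came after *Rbm15b* at 12.4 ± 0.643 and *Ythdc1* at 9.52 ± 0.528 RPKM, and its range overlapped that of *Ythdc1* but not that of *Rbm15b*. Annotated exons that are not used in these cells would lower such values, most of all for *Fto* and *Ythdc1*, whose exon unions are the longest, at 13031 and 13651 bases.

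The genes whose log2 CPM was most like that of *Rbm15* over the 8 libraries, out of 12046 genes with a mean of at least 1 CPM, were *Atad2*, a chromatin ATPase (Pearson r = 0.996), *Caprin1*, an RNA-binding protein (0.989), *Kif18a*, a mitotic kinesin (0.985), *Anln*, an actin-binding protein of cytokinesis (0.982), and *Appbp2* (0.982). These values are given as a description, since all 8 points share the difference between the groups. *Atad2* fell from 264.6 ± 13.7 to 197.8 ± 15.6 CPM (SD over 4 libraries per group; log2 fold change -0.42, edgeR adjusted p = 0.0286). *Kif18a* fell by 0.56 on the log2 scale (edgeR adjusted p = 0.0254) and *Anln* by 0.35 (edgeR adjusted p = 0.0360). Among the other factors, *Ythdf1* was most like *Rbm15* (r = 0.901), followed by *Wtap* (0.844) and *Ythdf2* (0.823), whereas *Rbm15b* was at 0.048 and *Mettl3* at -0.70.

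The rest of the pathway was followed through 37 genes in 5 lists, of which 36 were tested. 2 of them, the readers *Ythdc2* and *Fmr1*, were lower by edgeR and 0 were higher, and at an unadjusted p under 0.05 there were 14 lower and 0 higher, where 11.2% of all genes were lower and 8.98% higher. DESeq2 called 6 lower and 0 higher, limma's voom 5 and 0 (8.35% of all genes, 4.92% lower and 3.43% higher), and edgeR with the replicate block 9 and 0, against a background of 9.43% lower and 11.2% higher with the block. Without the block the count was 0 when any 1 of the DMSO libraries or IOX5 replicate 3 was left out, and also when DMSO replicates 3 and 4 were summed, 1 without IOX5 replicate 1 or 2, and 4 without IOX5 replicate 4. Log2 fold changes were below 0 for 29 of the 36, and for 5855 of all 12405 genes tested. The median of the 36 was -0.13, against 0.017 over all genes.

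*Ythdc2*, an RNA helicase with a YTH domain, stood at 39.2, 42.2, 42.2 and 38.8 CPM in DMSO replicates 1 to 4 and at 30.4, 32.2, 33.8 and 27.9 CPM in IOX5 replicates 1 to 4. The groups did not overlap, and *Ythdc2* fell by 0.38 on the log2 scale (standard error 0.079, edgeR adjusted p = 0.0485). *Fmr1*, which encodes the translational regulator FMRP, stood at 290.8, 317.8, 291.5 and 311.5 CPM in DMSO replicates 1 to 4 and at 248.8, 236.7, 218.9 and 211.2 CPM in IOX5 replicates 1 to 4. It fell by 0.40 (standard error 0.068, edgeR adjusted p = 0.0282). With the replicate block the readers *Elavl1* (log2 fold change -0.29, edgeR adjusted p = 0.0709 unblocked and 0.00638 blocked), *Hnrnpc* (-0.27, 0.171 and 0.0254) and *Prrc2a* (-0.24, 0.170 and 0.0318) were also called lower.

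*Igf2bp3*, a reader that stabilizes marked RNA, differed more between replicate numbers than between groups. It stood at 146.9, 176.8, 25.1 and 28.3 CPM in DMSO replicates 1 to 4 and at 109.7, 140.0, 13.2 and 18.8 CPM in IOX5 replicates 1 to 4. Replicate numbers 3 and 4 were thus far lower than 1 and 2 in both groups. All 4 pairs were lower with IOX5, and edgeR gave an adjusted p of 0.825 unblocked (log2 fold change -0.42) and 0.00137 blocked (-0.52). *Igf2bp2* stood at 1.61 ± 0.413 and 2.14 ± 1.30 CPM (SD, n = 4 each), and *Igf2bp1*, with 13 reads in all 8 libraries, did not pass the filter.

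In the list of other writers and adaptors, 8 of 9 log2 fold changes were below 0 (7 of 9 by DESeq2), with 0 called by edgeR. At an unadjusted p under 0.05, 4 were lower, and DESeq2 called 1 lower (*Zc3h13*). Over all genes, 5855 of 12405 were below 0, 11.2% were lower at an unadjusted p under 0.05 and 5.75% were called lower by DESeq2. *Mettl16*, which methylates U6 snRNA and *Mat2a* mRNA, stood at 84.2 ± 8.38 CPM in DMSO and 66.6 ± 8.82 CPM in IOX5 (SD, n = 4 each), and edgeR gave an adjusted p of 0.132 unblocked and 0.00858 blocked. *Virma*, the scaffold of the writer complex, had a log2 fold change of -0.070 and *Zc3h13*, its zinc finger partner, of -0.16 (edgeR adjusted p = 0.548 and 0.120). *Mat2a*, the enzyme that makes the methyl donor S-adenosylmethionine, stood at 377.2 ± 25.5 and 299.0 ± 44.2 CPM (SD over 4 libraries per group; edgeR adjusted p = 0.126 unblocked and 0.00409 blocked). *Ahcy*, which clears S-adenosylhomocysteine, had a log2 fold change of -0.29 (edgeR adjusted p = 0.0980 unblocked and 0.0102 blocked).

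The other AlkB homologues, oxygenases of the family of ALKBH5, showed no call. Of 7 genes, 3 had log2 fold changes above 0 and 4 below, and 0 had an unadjusted p under 0.05 by edgeR, with or without the block, or by DESeq2. The 4 partners of readers and of the SPOC domain, *Srsf3*, *Srsf10*, *Spen* and *Nxf1*, had log2 fold changes from -0.18 to -0.053, with 0 called by edgeR or DESeq2. At an unadjusted p under 0.05 by edgeR, 1 of the 4 was lower, against 11.2% of all genes. With the block 2 were lower, where 4390 of 12405 genes had such a p in either direction.

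**Figure D4:**
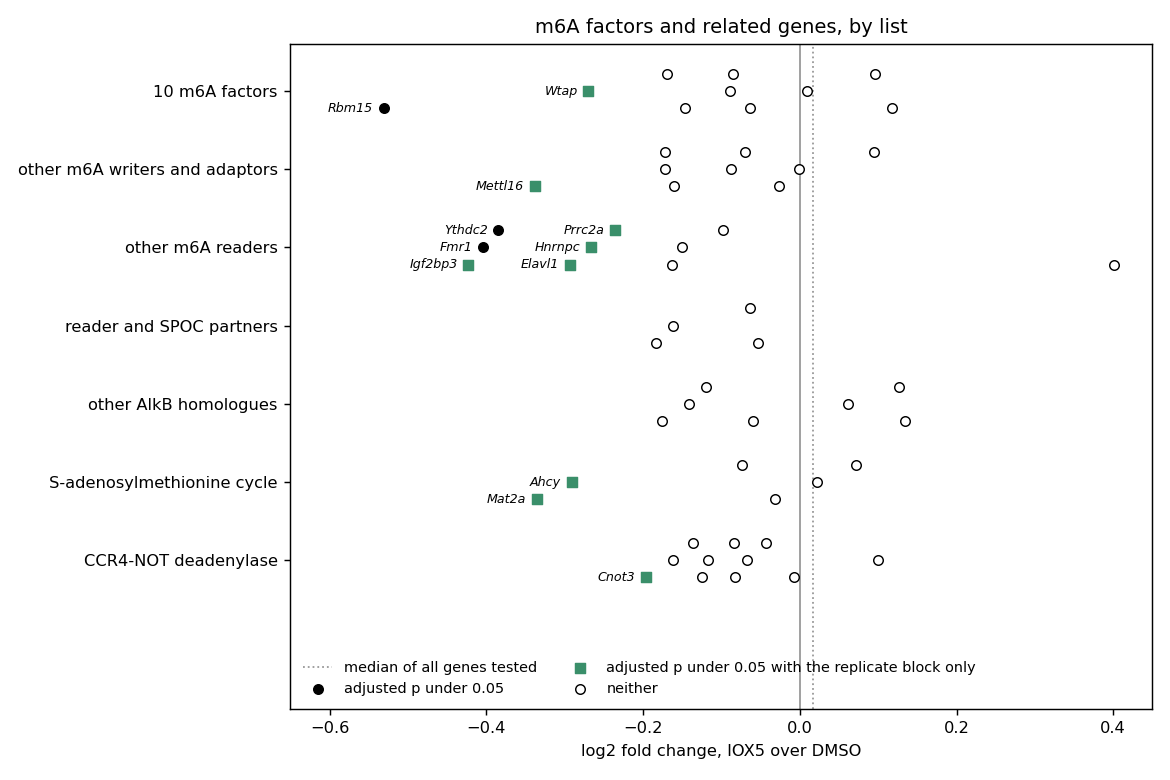
Log2 fold change, IOX5 over DMSO, of the tested m6A factors and related genes, 1 row per list, with black circles for genes called by edgeR without the replicate block, green squares for those called with it alone, and a dotted line at the median of all genes tested (0.017); vertical offsets within a row only separate the points. *Rbm15* (-0.53) lies farthest to the left, the calls lie left of 0, and the isolated open point at 0.40 is *Igf2bp2*.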

How the data were processed

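RNA-seq was made from poly(A) RNA of 8 samples, 4 DMSO and 4 IOX5, with directional libraries. Per the labels and the methods of the study, the authors trimmed with cutadapt 1.18, mapped to GRCm38 with HISAT2 2.2.1 and counted reads per gene with HTSeq 2.0.1. The deposited values are raw counts per gene, 1 file per sample. The methods name a transcript-aware index of HISAT2, and the release of the annotation used for counting is not given in the sources used here. The 5 summary lines of each file (20.6% to 22.6% of reads) were left out. Of 54838 genes, 54723 matched GENCODE M21.

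Groups and replicate numbers came from sample titles. IOX5 was compared with DMSO in R 4.3.3 with edgeR 4.0.16: filterByExpr, TMM factors (0.988 to 1.03) and the quasi-likelihood test, with Benjamini-Hochberg adjustment over 12405 genes and a threshold of 0.05. Standard errors are the log2 fold change over the root of F. Log2 CPM values used a prior count of 2, and ratios 0.5 added to each count. Ratios were tested by exact permutation of the 70 assignments. Alternatives used DESeq2 1.42.0, limma 3.58.1, other factors, filters, left-out samples and the replicate block. Steps were tested on simulated data.

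Members and lists were chosen with earlier results of these data known, and summing DMSO replicates 3 and 4, or joining numbers 3 and 4 in the block, after seeing the data. Named were all members, list genes called with or without the block, 4 HIF targets, and the 5 genes most correlated with *Rbm15*. Other genes, named to describe a list, were chosen after their values were seen. Some listed genes are not reported here.

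Same-numbered samples deviated together from their group means (r = 0.758, 0.744, 0.732 and 0.636 for numbers 1 to 4), so the numbers were taken to pair the samples. Numbers 3 and 4 were also alike across numbers, and DMSO replicate 4 correlated more with IOX5 replicate 3 (0.685) than with IOX5 replicate 4.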

Additional observations from a re-analysis of the deposited data

Results flagged for a closer look

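The ratio of *Mettl3* to *Mettl14* reads in IOX5 replicate 3 was 0.765, apart from the other IOX5 libraries, which lay between 0.661 and 0.678. The gap was 0.836 of the range of the group, above Dixon's critical value for 4 samples. It was the 1 case among 64 groups of 4 examined in this way, and chance gives about 1 in 20. In that library *Mettl14* was at 39.6 CPM, the lowest of the 8 libraries, and *Mettl3* at 30.2 CPM.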

How the results depend on the processing

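Direction was kept by 9 of the 10 factors under all 22 alternatives, and the *Rbm15b* value, close to 0, ran from -0.024 (without IOX5 replicate 3) to 0.031 with 1 sample left out, and turned to -0.026 and -0.0099 with the block and without number 3 or 4. Over all genes, edgeR called 251 (38.2% higher, or 48.3% of 209 with upper-quartile factors). It called 2564 with the replicate block (1644, 2135, 1045 and 2413 without number 1, 2, 3 or 4), 2654 with numbers 3 and 4 as 1 level of the block, 152 with no filter, and 0 with DMSO replicates 3 and 4 summed, where 1936 had an unadjusted p under 0.05. DESeq2 called 1091, or 1727 with the block, and voom 1036. Leaving out 1 sample without the block gave 0 to 463 calls, the 0 being for samples DMSO 3, DMSO 4 and IOX5 3, with 1969, 1846 and 2111 genes at an unadjusted p under 0.05. The cause was not tested.

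Of the 10 factors, 2 were called with the block, with numbers 3 and 4 as 1 level, by DESeq2 with and without the block and by voom, and 0 with DMSO replicates 3 and 4 summed. Leaving out 1 sample gave 0 to 2, and leaving out 1 number with the block 1 to 2. Over all genes, 20.7% were called with the block, 2654 of 12405 with numbers 3 and 4 as 1 level, and 8.35% by voom. DESeq2 called 10.4%, or 1727 of 11683 with the block. Leaving out 1 sample gave at most 463 of 12630 genes, without IOX5 replicate 4. Leaving out 1 number with the block gave from 1045 of 12479 to 2413 of 12474. Of the other pathway genes, 9 were called with the block, 9 with numbers 3 and 4 as 1 level, 6 by DESeq2 and 9 by DESeq2 with the block, 5 by voom, 1 each with RLE factors, upper-quartile factors or no filter, and 0 with DMSO replicates 3 and 4 summed. Leaving out 1 sample gave 0 to 4, and leaving out 1 number with the block 7 to 8. Over all genes, RLE factors called 205 of 12405, upper-quartile factors 209 of 12405, and no filter 152 of 25386. Tested by sign-flips of the 4 pairs as a replicate block, the ratio differences of -0.54 (*Rbm15* to *Rbm15b*) and 0.19 (*Mettl3* to *Mettl14*) gave p = 0.125, the smallest exact p that 4 pairs allow. With 1 sample left out, these differences ran from -0.60 to -0.50 and from 0.14 to 0.21, and that of *Fto* to *Alkbh5* from -0.23 to -0.13. Apart from the block values given beside the results, the block changed no other call of a factor.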

Other observations

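Transcripts known in myeloid leukemia as targets of m6A factors did not move in 1 direction. Of 11 tested genes, *Sp1*, a METTL3 target, was the 1 called by edgeR. It stood at 201.2, 198.1, 193.7 and 204.6 CPM in DMSO replicates 1 to 4 and at 158.6, 146.6, 158.6 and 137.5 CPM in IOX5 replicates 1 to 4, and it fell by 0.41 on the log2 scale (edgeR adjusted p = 0.0254). With the replicate block, *Sp1* and *Tacc3* (log2 fold change -0.34) were lower and *Bcl2* (0.49), *Myb* (0.36), *Cebpa* (0.50) and *Tnfrsf1b* (0.43) were higher, against a background of 9.43% lower and 11.2% higher. *Myc* had a log2 fold change of 0.18, and edgeR gave an adjusted p of 0.687 unblocked and 0.0683 blocked.

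Transcripts known as RBM15 targets in blood cells were called with the block. *Gata1*, *Tal1*, *Itga2b* and *Runx1* had log2 fold changes of 0.51, 0.52, 0.67 and 0.15, with 0 called by edgeR or DESeq2 without the block and 0 at an unadjusted p under 0.05. When blocked, *Gata1* (edgeR adjusted p = 0.00802), *Tal1* (0.00122) and *Itga2b* (0.000407) were called higher, each with all 4 pairs higher. Over all genes, 11.2% were called higher with the block and 21.3% were higher in all 4 pairs. *Itga2b* also stands in the megakaryocyte marker list, of which 3 of 5 genes were called higher with the block, as were 6 of 6 mast cell and basophil markers. The part of cell composition in these values was not tested. Gene counts do not resolve splicing. Of the 11 genes of the CCR4-NOT deadenylase, which YTHDF2 recruits, 10 had log2 fold changes below 0 (median -0.084), with 0 called by edgeR or DESeq2. At an unadjusted p under 0.05, 2 were lower, and 1 was called lower with the block (*Cnot3*, -0.20, edgeR adjusted p = 0.0383). Over all genes, 5855 of 12405 were below 0, 11.2% were lower at an unadjusted p under 0.05 and 9.43% were called lower with the block.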
